A study of Mus musculus with 4 samples.

Results

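TRBV19 and TRBV29 are the mouse V segments that encode the Vβ6 and Vβ7 chains of the T-cell receptor. Their rearrangements were taken from tables of T-cell receptor β (TRB) clonotypes of CD8+ T cells, as the rows whose first listed V segment was one of these names. An in-frame row has a CDR3 reading frame without a stop codon or a frameshift, and a clonotype is 1 row of a table: 1 nucleotide sequence of CDR3 together with a V and a J segment. TRBV19 had 9432 and TRBV29 had 15879 in-frame clonotypes over the 4 libraries, together 25311 of 238470. Out-of-frame rearrangements, which cannot form a β chain, numbered 848 and 912 for the 2 segments, of 22386 in all.

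The cells were sorted as DAPI-CD45+CD3+CD8+ cells from collagenase-digested livers on day 14 after injection of MC38 cells, a mouse colon adenocarcinoma line that the labels call melanoma. All livers carried MC38 metastases. The hosts were wild-type (WT) or Vsig4-/- mice, the latter lacking a complement receptor found on liver macrophages, with 2 libraries per genotype. The libraries are named wild-type 1 and 2 and Vsig4-deficient 1 and 2, and values of all 4 are given in that order. Neither age, sex, strain nor the number of animals per library was given in the sources used here, and whether the pair of libraries of a genotype stems from different mice is not stated. The p-values therefore measure only the spread between samples, which may be technical, or counting error where the edgeR fit varied less than counting allows. For comparisons made within each library, the spread is that of the difference. The assay held no transcripts other than TRB, so that neither the sort markers nor loss of Vsig4 could be checked. The libraries held 901567 to 1269480 counts. Vsig4-deficient library 2 stood apart in having 33.0% of its clonotypes at 1 count, against 17.6% to 21.4% in the other libraries.

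A β chain gene is made in the thymus by joining a D to a J segment and then a V to the DJ. The joins lose bases from the segment ends and gain untemplated ones, and the resulting CDR3 loop contacts peptide. Each D segment has its own J cluster behind it: TRBD1 lies before the TRBJ1 cluster and can join either cluster, whereas TRBD2 lies between the clusters and normally joins TRBJ2 only. An in-frame receptor is selected on self-peptide and MHC, while an out-of-frame rearrangement is carried in cells that live by their other allele and so reports usage before that selection. Vβ6 and Vβ7 are textbook examples of selection, since T cells with these chains are deleted in mice that express certain endogenous retroviral superantigens. TRBV29 is also used by semi-invariant natural killer T cells, which cannot be told from other cells by the β chain, and α chains were not analysed here.

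Trbv19 lies on chromosome 6 at 41178589 to 41179048 (GRCm38.p6), between Trbv18 and Trbv20, and 354 kb before Trbd1. Trbv29 lies at 41271403 to 41271881, between Trbv28 and Trbv30, and 261 kb before Trbd1. RefSeq annotates Trbv19 as a V segment and Trbv29 as a V segment pseudogene. Both segments were nevertheless found in frame, with a share of in-frame rows among all rows of the segment of 91.5% ± 0.656 for TRBV19 and 94.3% ± 1.08 for TRBV29 (mean ± SD, n = 4 libraries).

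The germline 3′ ends of the segments show how their CDR3 loops can differ before any base is added. They are given as the start of CDR3 in rows that the deposited alignment marks as untrimmed, with capitals for the bases at which the 2 segments differ or which exceed the shared frame.
TRBV19 germline end: tgtgcCagcagtAtaG
TRBV29 germline end: tgtgcTagcagtTtaTC
Over in-frame and other rows whose alignment ends exactly at the germline end, the TRBV19 end was read in 895 of 917 rows and has 16 bases, and the TRBV29 end was read in 786 of 797 and has 17. Both encode the same residues up to position 5 of the CDR3, where TRBV19 has isoleucine and TRBV29 has leucine. These germline residues stood at position 5 in 34.5% ± 1.5 of TRBV19 and 34.97% ± 1.59 of TRBV29 clonotypes (SD, n = 4).

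The largest in-frame clonotype of each segment and library is given to show the junctions that held the most counts. Capitals mark the bases between the aligned V and J ends, which hold the D segment and added bases.
TRBV19 wild-type 1: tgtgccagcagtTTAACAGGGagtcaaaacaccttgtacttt
TRBV19 wild-type 2: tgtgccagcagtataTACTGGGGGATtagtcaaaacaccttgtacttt
TRBV19 Vsig4-deficient 1: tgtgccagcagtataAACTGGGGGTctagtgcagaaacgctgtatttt
TRBV19 Vsig4-deficient 2: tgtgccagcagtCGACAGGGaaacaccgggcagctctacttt
TRBV29 wild-type 1: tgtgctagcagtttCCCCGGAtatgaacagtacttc
TRBV29 wild-type 2: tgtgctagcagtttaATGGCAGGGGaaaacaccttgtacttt
TRBV29 Vsig4-deficient 1: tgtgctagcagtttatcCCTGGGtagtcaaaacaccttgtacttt
TRBV29 Vsig4-deficient 2: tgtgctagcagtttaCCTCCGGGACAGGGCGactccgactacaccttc
All 8 were different sequences. In order of the libraries the J segments were TRBJ2-4, TRBJ2-4, TRBJ2-3 and TRBJ2-2 with TRBV19 and TRBJ2-7, TRBJ2-4, TRBJ2-4 and TRBJ1-2 with TRBV29. The assigned D was TRBD1, TRBD2, TRBD2 and TRBD1 with TRBV19, and with TRBV29 it was tied in the first and TRBD1, TRBD2 and TRBD1 in the others. Their counts are given with the clone sizes.

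The first comparison asked how often each segment was used and whether the genotypes differed in it. TRBV19 made up 4.62%, 4.25%, 4.21% and 3.02% of in-frame clonotypes. The 95% Wilson intervals were 4.44 to 4.81, 4.10 to 4.39, 4.04 to 4.40 and 2.90 to 3.15, and cover counting error only. Both Vsig4-deficient libraries thus lay below both wild-type libraries, but Vsig4-deficient 1 was within the interval of wild-type 2. The wild-type mean was 4.43% ± 0.266 and the Vsig4-deficient mean 3.62% ± 0.841 (SD, n = 2 each).

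TRBV29 made up 6.90%, 7.28%, 6.74% and 5.79% of in-frame clonotypes, with intervals of 6.67 to 7.13, 7.09 to 7.47, 6.52 to 6.97 and 5.62 to 5.96. The order of the libraries between genotypes was the same as for TRBV19, with Vsig4-deficient 2 lowest. The means were 7.09% ± 0.271 and 6.27% ± 0.677 (SD, n = 2 each). Over all 23 segments tested, 43.5% had no overlap between genotypes, and 26.1% had both Vsig4-deficient libraries below both wild-type libraries. By edgeR's quasi-likelihood test over 23 segments, the log2 ratio of Vsig4-deficient over wild-type was -0.29 ± 0.18 (SE) for TRBV19 and -0.18 ± 0.10 for TRBV29 (Benjamini-Hochberg adjusted p = 0.551 for both). The test called 0 of 23 segments (0%), of which 0 had an unadjusted p below 0.05, and DESeq2 called 0 as well. Without Vsig4-deficient library 1, TRBV19 was at -0.55 (edgeR adjusted p = 3.66e-06) and TRBV29 at -0.29 (edgeR adjusted p = 1.64e-05), in a fit that assumes the lone library to vary like the wild-type pair and that called 56.5% of the 23 segments.

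**Figure D1:**
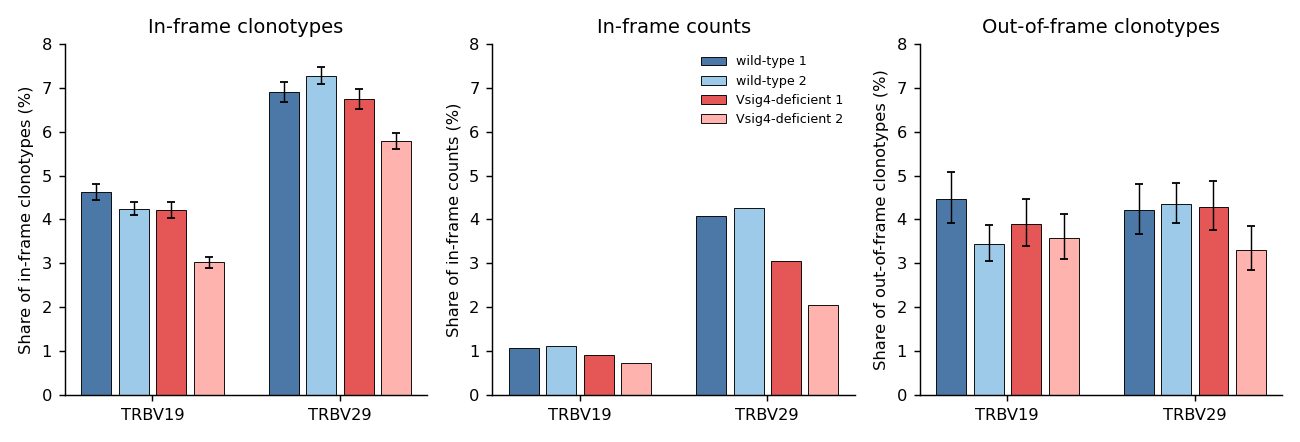
Share of TRBV19 and TRBV29 in each library (%), among in-frame clonotypes, in-frame counts and out-of-frame clonotypes. Bars are single libraries. Error bars, drawn for the shares of clonotypes and not for that of counts, are 95% Wilson intervals. TRBV29 is above TRBV19 in every library in frame, and the 2 segments are near 4% each out of frame.

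Weighted by counts, both segments took a smaller share than by clonotypes. TRBV19 held 1.08%, 1.12%, 0.910% and 0.735% of in-frame counts, and TRBV29 held 4.09%, 4.26%, 3.05% and 2.04%. Vsig4-deficient libraries lay below wild-type libraries for both segments, as they did for 37.5% of all 24 segments tested by this measure, and 50% had no overlap in either direction. edgeR's quasi-likelihood test gave log2 ratios of -0.42 ± 0.44 (SE) for TRBV19 (adjusted p = 0.592) and -0.71 ± 0.33 (SE) for TRBV29 (unadjusted p = 0.0339, adjusted p = 0.203). It called 0 of 24 segments (0%), of which 4 had an unadjusted p below 0.05, and DESeq2 called 1, which was neither TRBV19 nor TRBV29.

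Shares by counts include the few largest clonotypes of a library, most of which used other segments. Clonotypes above 0.1% of in-frame counts numbered 30, 21, 71 and 60 in the libraries, of which 0, 1, 0 and 0 used TRBV19 and 3, 1, 4 and 0 used TRBV29. With these clonotypes left out, the log2 ratio turned to 0.26 for TRBV19 and was -0.16 for TRBV29 (edgeR). Without Vsig4-deficient library 1, TRBV29 by counts was at -1.03 and passed the test (edgeR adjusted p = 0.0199), as did 21.7% of 23 segments.

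By mean clonotype share over the 4 libraries, TRBV29 ranked 8th and TRBV19 ranked 9th of 26 segments. TRBV29, at 6.68% ± 0.635 (SD, n = 4), had TRBV1 just above it at 7.10% ± 0.718, a gap smaller than either SD. TRBV19, at 4.03% ± 0.693, had TRBV4 just below it at 3.98% ± 0.466, and the gap between TRBV29 and TRBV19 exceeded both of their SDs.

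The segments closest to each in pattern over the 4 libraries were found from the distance between centred log2 shares, for which the largest of 22 comparisons was 0.71 for TRBV19 and 0.73 for TRBV29. TRBV16 (0.09), TRBV5 (0.11) and TRBV2 (0.25) were closest to TRBV19. TRBV4 (0.09), TRBV14 (0.14) and TRBV12-1 (0.17) were closest to TRBV29. These distances rest on 4 libraries that differ in depth.

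The second comparison set in-frame against out-of-frame usage in the same libraries, as a measure of how usage differs after selection on the receptor. TRBV29 was more used in frame than out of frame and TRBV19 was not distinguishable between frames. Out of frame, TRBV19 made up 4.46%, 3.44%, 3.89% and 3.58% of clonotypes and TRBV29 made up 4.21%, 4.34%, 4.29% and 3.31%. Out of frame the 2 segments overlapped, at means of 3.84% ± 0.451 and 4.04% ± 0.486 (SD, n = 4).

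For TRBV29 the log2 ratio of in-frame over out-of-frame share was 0.71, 0.75, 0.65 and 0.81 in the libraries, above 0 in 4 of 4. edgeR's quasi-likelihood test with the library as a block gave 0.73 ± 0.06 (SE) with an adjusted p of 2.25e-17. For TRBV19 the ratios were 0.05, 0.30, 0.12 and -0.24, so that Vsig4-deficient library 2 lay on the other side of 0. The fit gave 0.08 ± 0.07 (SE) with an adjusted p of 0.340 by edgeR. Of 24 segments 62.5% were called, 29.2% with higher and 33.3% with lower usage in frame, and the median over all segments was 0.03. By this ratio TRBV29 ranked 4 and TRBV19 ranked 11 of the 24.

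The result for TRBV19 depended on single libraries. Without Vsig4-deficient library 2 it was 0.17 (edgeR adjusted p = 0.0222), and without wild-type library 2 it was -0.02. With clonotypes of 1 count left out it was 0.22 (edgeR adjusted p = 0.0421). No genotype difference in this ratio was found for either segment, with a difference in means of -0.24 for TRBV19 (two-sided exact permutation p = 0.667) and 0.00021 for TRBV29 (exact permutation p = 1), where 0.333 is the smallest p that 6 splits allow.

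**Figure D2:**
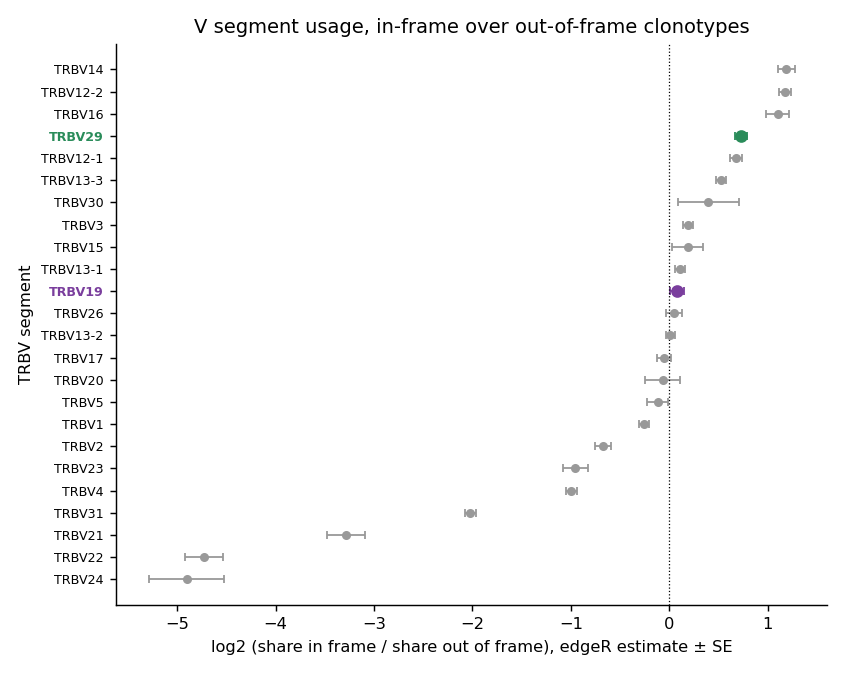
Log2 ratio of the share of each TRBV segment in frame over its share out of frame (edgeR estimate ± SE, 4 libraries), 1 row per segment. TRBV29 lies at 0.73 and TRBV19 at 0.08.

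The third comparison was of the D segments joined to each V. In TRBV29 the balance of the D segments was turned: most clonotypes of other V segments with a TRBJ2 segment and an assigned D used TRBD2, whereas TRBV29 clonotypes mostly used TRBD1. Only TRBJ2 clonotypes are informative on this balance, as TRBD2 normally cannot reach TRBJ1. Rows in which both D segments had the same alignment score formed a class of their own. Over both J clusters, the scope planned at first, the TRBD1 share differed from that of other V segments by 13.5 points for TRBV29 and 5.53 points for TRBV19 (exact sign-flip p = 0.125 each).

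Among TRBJ2 clonotypes with TRBV29, TRBD1 was assigned in 42.8%, 45.0%, 45.7% and 43.6%, against 26.3%, 25.8%, 27.3% and 27.7% with all other V segments. TRBD2 was assigned in 22.2%, 21.9%, 21.01% and 21.8%, against 47.2%, 47.4%, 45.95% and 45.5%. The TRBV29 values lay apart from those of other V segments in each library, by 17.5 ± 1.58 percentage points for TRBD1 and by -24.8 ± 0.810 for TRBD2 (SD, n = 4). The two-sided exact sign-flip test gave p = 0.125 for each, the smallest that 4 libraries allow. TRBJ2 rows without an assigned D were also more frequent with TRBV29, by 5.06 ± 0.790 points, and tied rows by 2.20 ± 0.419 points (SD, n = 4). The lower TRBD2 share was thus not met by TRBD1 alone.

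The same balance was found out of frame. Of the 139, 222, 143 and 90 out-of-frame TRBJ2 clonotypes with TRBV29, 46.8%, 48.6%, 46.2% and 47.8% had TRBD1 and 23.02%, 20.3%, 24.5% and 22.2% had TRBD2. Other V segments had 28.4% ± 0.707 and 45.0% ± 0.962 (SD, n = 4). The out-of-frame difference, 18.9 ± 1.60 percentage points for TRBD1, was close to the in-frame one. At a fixed CDR3 length of 14 amino acids the in-frame difference for TRBD1 was 19.2 ± 2.91 points, and weighted by counts it was 19.1 ± 5.83 points (SD, n = 4 each).

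TRBV29 had the highest excess of TRBD1 over TRBD2 among the 20 V segments with at least 100 TRBJ2 clonotypes in every library. TRBV26 was next, with 37.9% ± 0.675 TRBD1 and 28.0% ± 0.924 TRBD2 (SD, n = 4), and these 2 were the only ones of the 20 with more TRBD1 than TRBD2. At the other end, TRBV31 had 21.9% ± 1.40 and 55.7% ± 0.558.

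TRBV19 leaned the same way by less. With TRBJ2 it had TRBD1 in 33.1%, 31.5%, 34.6% and 32.9% and TRBD2 in 38.0%, 40.0%, 39.0% and 41.4% of clonotypes. The difference from other V segments was 5.37 ± 0.964 points for TRBD1 and -5.59 ± 2.12 points for TRBD2 (SD, n = 4; exact sign-flip p = 0.125 each). It ranked 5 of the 20. Weighted by counts the TRBD1 difference was 1.14 ± 4.45 points (SD, n = 4, exact sign-flip p = 0.875). The TRBD2 difference turned to 2.20 ± 3.45 points by this weighting (SD, n = 4, exact sign-flip p = 0.375). Out of frame, TRBD1 was assigned in 44.0%, 37.7%, 29.9% and 37.6% of 150, 167, 137 and 109 clonotypes, so that Vsig4-deficient library 1 was near the other V segments at 29.6%.

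With TRBJ1, TRBD2 was assigned in 5.36% ± 1.16 of TRBV19 and 5.65% ± 0.524 of TRBV29 clonotypes (SD, n = 4), against 4.77% ± 0.263 and 4.72% ± 0.269 of those with other V segments. This is the level at which D assignments occur where TRBD2 is not normally available. Over both J clusters, TRBD1 was at 40.3%, 40.3%, 42.7% and 42.1% with TRBV19 and at 47.3%, 49.2%, 50.2% and 47.8% with TRBV29. The genotypes did not overlap for TRBV19, with a difference of 2.11 points (exact permutation p = 0.333), and overlapped for TRBV29, with a difference of 0.723 points (exact permutation p = 0.667). Of the 20 V segments with at least 100 clonotypes in every library, 75% did not overlap, 70% with higher TRBD1 shares in Vsig4-deficient libraries.

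Clonotypes with no D assigned made up 23.9%, 24.1%, 21.7% and 22.1% with TRBV19, against 23.8%, 23.8%, 23.8% and 23.8% with other V segments. TRBV19 was thus near other V segments in wild-type libraries, at 0.116 and 0.281 points from them. It was lower in Vsig4-deficient libraries, at -2.19 and -1.70 points. Among TRBJ2 clonotypes the TRBV19 share differed between genotypes by -3.47 points (exact permutation p = 0.333). Among TRBJ1 clonotypes the difference was -0.438 points (exact permutation p = 0.667), and the genotypes overlapped. How many single V segments have no overlap between genotypes in this share was not counted. With TRBV29 they made up 26.2%, 25.2%, 25.2% and 25.9%, against 23.6%, 23.7%, 23.6% and 23.6% with other V segments. The TRBV29 difference was 5.06 points among TRBJ2 and -5.25 points among TRBJ1 clonotypes.

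The amino acids of the loop were compared as well. TRBD2, but not TRBD1, encodes a tryptophan in a germline reading frame. A tryptophan stood in the loop of 7.96%, 7.56%, 7.32% and 7.59% of TRBV29 clonotypes. TRBV19 had 11.7%, 10.8%, 10.4% and 9.85%, and clonotypes of the remaining V segments had 14.4%, 14.05%, 13.7% and 13.2%. Both segments were lower than the rest in 4 of 4 libraries.

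**Figure D3:**
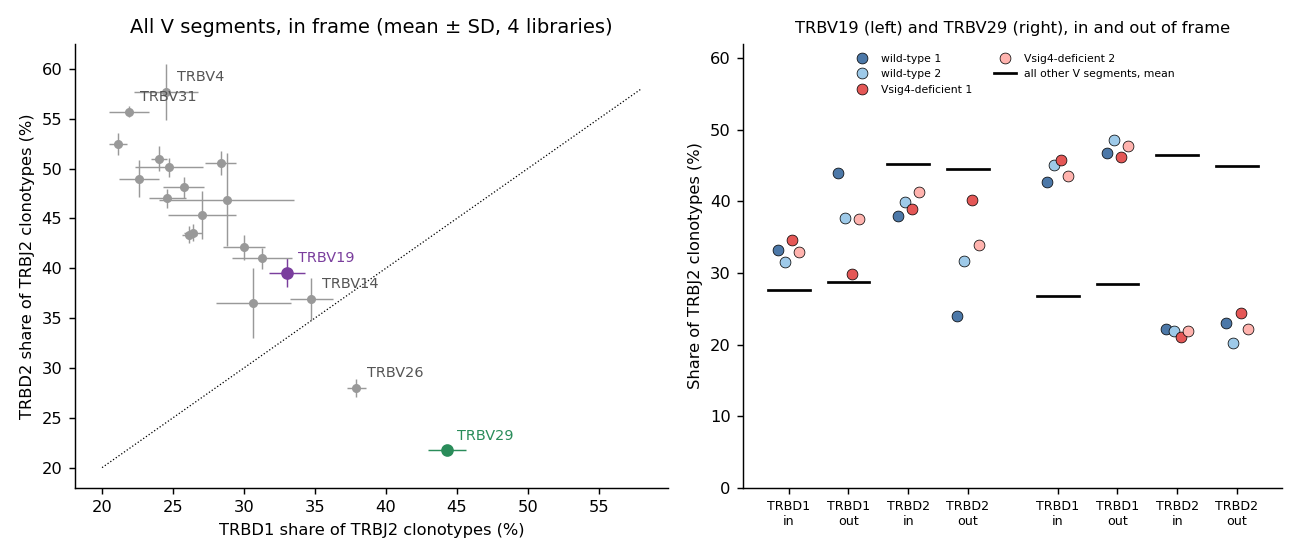
Left, share of TRBD1 against share of TRBD2 among in-frame TRBJ2 clonotypes of 20 V segments (%, mean ± SD over 4 libraries); the dotted line marks equal shares, and TRBV29 and TRBV26 lie below it. Right, the same shares of TRBV19 and TRBV29 in single libraries in and out of frame, with black bars for the mean of all other V segments.

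The fourth comparison was of J segments. The TRBJ1 cluster had a higher share with both V segments than with all other V segments pooled. Among the J segments of TRBV19 the largest difference was for TRBJ1-6. Single V segments were not ranked by these shares. Of 257 pairs of a V and a J segment, edgeR's quasi-likelihood test against all other V segments called 44.4%, so that a call was common. TRBV19 had 4 J segments with a higher and 3 with a lower share among 12, and TRBV29 had 4 and 3. The background was 22.2% in each direction.

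TRBV19 joined TRBJ1-6 in 5.14%, 5.01%, 5.30% and 6.27% of its clonotypes, against 2.84%, 2.78%, 2.94% and 3.23% of other V segments. Every TRBV19 value was above every value of the others. The log2 ratio was 0.88 ± 0.05 (SD, n = 4; edgeR adjusted p = 7.71e-08). Out of frame TRBJ1-6 made up 5.15% ± 1.19 of TRBV19 and 3.86% ± 0.642 of other clonotypes, with a value below the others in Vsig4-deficient library 2.

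The other J segments called for TRBV19 differed by less. TRBJ1-1, which ranked 3 in use, was at 11.8% ± 0.597 against 9.47% ± 0.297 (log2 ratio 0.32 ± 0.07), TRBJ1-4 was at 0.22 ± 0.13 and TRBJ2-1 was at 0.16 ± 0.07 (SD, n = 4). Lower shares were found for TRBJ2-5 (-0.33 ± 0.12), TRBJ2-7 (-0.30 ± 0.20) and TRBJ1-2 (-0.19 ± 0.10). TRBJ2-7 was still the most used J segment of TRBV19, at 17.2%, 18.04%, 16.3% and 12.4%, with Vsig4-deficient library 2 apart. TRBJ2-1 followed at 15.9% ± 1.28, and TRBJ2-5 and TRBJ2-4 ranked 4 and 5 at 9.71% ± 0.745 and 8.06% ± 0.293. Single libraries decided some of these calls by edgeR. TRBJ1-2 did not pass without wild-type library 2 (log2 ratio -0.14), TRBJ1-4 without Vsig4-deficient library 2 (0.22), TRBJ2-7 without wild-type library 1 (-0.30) or Vsig4-deficient library 1 (-0.29), and TRBJ2-1 without any of the libraries except wild-type 2 (0.14 to 0.15).

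For TRBV29 the most used J segments were TRBJ2-7 at 17.7% ± 0.389, TRBJ2-1 at 13.3% ± 1.34, TRBJ2-5 at 12.4% ± 0.532, TRBJ1-1 at 10.6% ± 1.33 and TRBJ2-4 at 7.61% ± 0.291. Higher shares than with other V segments were called for TRBJ1-6 (log2 ratio 0.27 ± 0.10), TRBJ1-3 (0.26 ± 0.19), TRBJ1-4 (0.19 ± 0.16) and TRBJ1-2 (0.16 ± 0.05). Lower shares were called for TRBJ2-3 (-0.21 ± 0.14), TRBJ2-4 (-0.21 ± 0.04) and TRBJ2-7 (-0.13 ± 0.05). The largest of these differences, for TRBJ1-6, was 3.64% ± 0.387 against 3.002% ± 0.191 (SD, n = 4). Weighted by counts, edgeR called 0 J segments for either V segment, TRBJ1-6 with TRBV29 turned to -0.0456, and TRBJ1-6 with TRBV19 was at 0.91 (edgeR adjusted p = 0.0653). The count of higher calls for TRBV29 ranged from 0 to 5 and that of lower calls from 0 to 4 when each library was left out in turn, and both were 0 without wild-type library 2. The higher calls were 1 without wild-type library 1 and 0 without Vsig4-deficient library 1, and the lower calls were 1 without wild-type library 1.

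**Figure D4:**
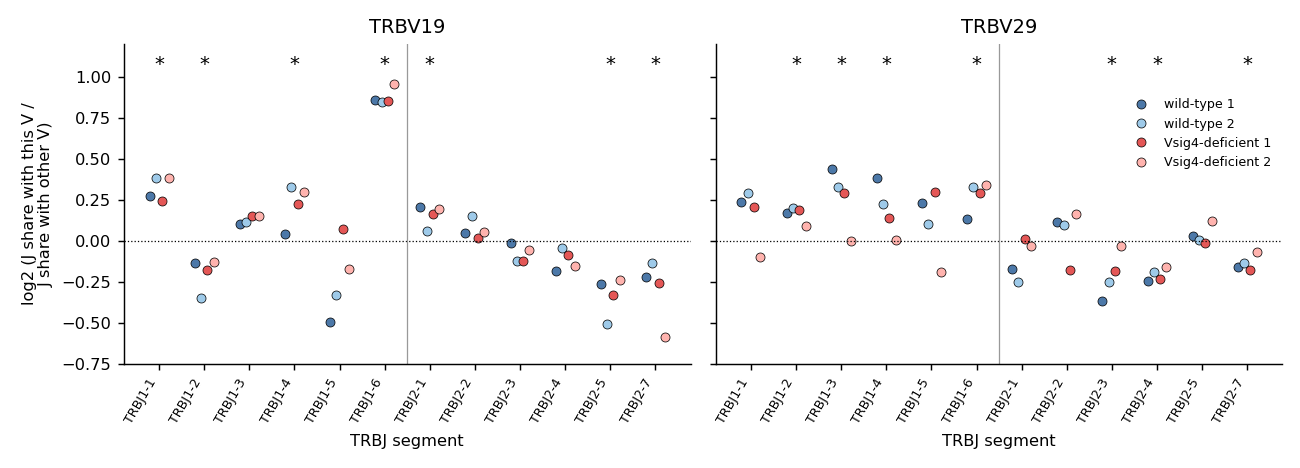
Log2 ratio of the share of each J segment among TRBV19 (left) and TRBV29 (right) clonotypes over its share among all other V segments, 1 point per library. Stars mark edgeR adjusted p-values under 0.05; TRBJ1-6 with TRBV19 is the highest group, at 0.85 to 0.96.

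The TRBJ1 cluster as a whole took 34.0%, 36.2%, 37.1% and 38.1% of TRBV19 clonotypes, against 30.5%, 31.05%, 32.1% and 31.4% of other clonotypes. It took 36.5%, 36.8%, 37.1% and 32.0% of TRBV29 clonotypes, against 30.2%, 30.8%, 31.9% and 31.6%. TRBV19 was 5.09 ± 1.32 points and TRBV29 4.46 ± 2.74 points above the others (SD, n = 4; exact sign-flip p = 0.125 for both), and for TRBV29 the gap was 0.407 points in Vsig4-deficient library 2. Out of frame the gap was 3.53 ± 4.19 and 5.70 ± 5.39 points.

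Between genotypes no J share within either segment was called. edgeR called 0 of 259 pairs (0%; smallest adjusted p = 0.402). At an unadjusted p below 0.05 there were 20 pairs, 1 of TRBV19 and 2 of TRBV29. The first was TRBJ2-7 with TRBV19 (log2 ratio -0.30), and the others were TRBJ2-1 (0.24) and TRBJ1-3 (-0.26) with TRBV29. In mean J profile, TRBV1, TRBV31 and TRBV29 were closest to TRBV19, with Jensen-Shannon divergences of 0.00313, 0.00449 and 0.00483 bits against a largest value of 0.0948 over 22 segments. TRBV13-3, TRBV13-1 and TRBV1 were closest to TRBV29, at 0.00250, 0.00283 and 0.00314 bits.

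The fifth comparison was of the CDR3 loop. Loops of TRBV29 were shorter than those of other V segments and loops of TRBV19 were slightly shorter. Mean length was 13.49, 13.51, 13.51 and 13.54 amino acids with TRBV29 and 13.73, 13.78, 13.81 and 13.78 with TRBV19. The V segments other than these 2 had 13.99, 13.96, 13.98 and 13.99. Neither segment overlapped with the rest in any library.

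By limma on the mean length per segment and library, TRBV29 was at -0.457 ± 0.0118 (SE) and TRBV19 at -0.172 ± 0.0187 amino acids from all other segments (adjusted p = 1.71e-05 and 0.00110). Of 23 segments 78.3% were called, 43.5% shorter and 34.8% longer. Weighted by counts, the difference was -0.336 for TRBV29 (limma adjusted p = 0.130) and turned to 0.016 for TRBV19 (limma adjusted p = 0.866). The median was 14 amino acids in every library for both segments.

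The difference lay in both tails. Loops of 12 or fewer amino acids made up 24.8%, 24.3%, 23.6% and 22.9% of TRBV29 clonotypes, 17.3% ± 0.649 of TRBV19 clonotypes and 15.3% ± 0.259 of those with the remaining V segments (SD, n = 4). Loops of 16 or more made up 6.59% ± 0.381, 8.92% ± 0.713 and 13.03% ± 0.0835. Between genotypes limma called 0 of 23 segments (0%), and 0 had an unadjusted p below 0.05. The differences were 0.020 amino acids for TRBV29 and 0.043 for TRBV19 (limma adjusted p = 0.754 for both).

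Out of frame, CDR3 was 41.6 ± 0.223 nucleotides long with TRBV29 and 41.2 ± 0.397 with TRBV19, against 42.2 ± 0.0709 with the remaining V segments (SD, n = 4). In frame, TRBV29 was at 40.5 ± 0.0610, TRBV19 at 41.3 ± 0.106 and the rest at 41.9 ± 0.0340. For TRBV29 the in-frame sequences were shorter than the out-of-frame ones in 4 of 4 libraries, by 0.973, 0.952, 1.42 and 1.08 nucleotides. Those of the remaining V segments were also shorter in frame in 4 of 4 libraries, by 0.338, 0.400, 0.220 and 0.255 nucleotides.

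The V end of the loop was also compared. TRBV29 kept 13.1, 12.9, 13.0 and 13.0 germline V bases in CDR3 and TRBV19 kept 12.8, 12.9, 12.8 and 12.7, against 13.7 in each library for the remaining V segments, whose germline ends differ in length. Between the V and J ends lay 9.16 ± 0.162 bases with TRBV29, 9.77 ± 0.0895 with TRBV19 and 9.48 ± 0.00582 with the rest (SD, n = 4). The V end was untrimmed, counting also rows that extend past it by palindromic bases, in 10.5% ± 0.808 of TRBV29 and 10.9% ± 1.05 of TRBV19 clonotypes, against 26.9% ± 0.160 of the rest.

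The number of bases lost from the germline ends shown above varied between the segments. In TRBV19, 22.3% ± 1.75 of clonotypes had lost 2 bases and 8.23% ± 0.276 had lost 3, whereas 20.0% ± 0.556 had lost 4 (SD, n = 4). In TRBV29 the most frequent losses were 5 bases, at 18.0% ± 0.899, and 6 bases, at 16.5% ± 0.910. A loss of 1 base was found in 3.42% ± 0.184 of TRBV29 clonotypes in frame and 8.02% ± 1.46 out of frame, with no overlap between frames. The frames also did not overlap for 8 bases lost in TRBV19, at 0.422% ± 0.122 in frame and 1.58% ± 1.02 out of frame. This and the loss of 1 base in TRBV29 were the 2 of 20 pairs of segment and loss without overlap. The out-of-frame value of TRBV19 rests on few rows, as it had 176 to 265 out-of-frame clonotypes per library. The mean number of V bases kept was higher in frame than out of frame by 0.062, 0.356, 0.137 and 0.203 for TRBV19 (exact sign-flip p = 0.125). For TRBV29 the difference was 0.009, 0.070, 0.039 and -0.002 (exact sign-flip p = 0.25). The remaining V segments were also higher in frame, by 0.187, 0.122, 0.161 and 0.213 (exact sign-flip p = 0.125). The V bases kept differed between genotypes by -0.099 for TRBV19 (exact permutation p = 0.333) and by -0.071 for TRBV29 (exact permutation p = 1).

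**Figure D5:**
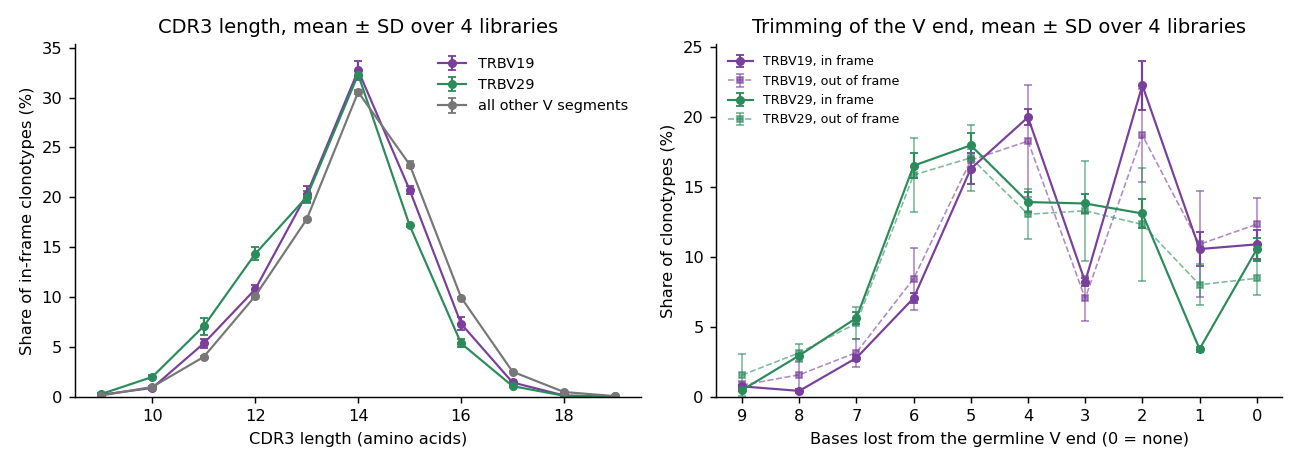
Left, share of in-frame clonotypes by CDR3 length in amino acids, mean ± SD over 4 libraries, for TRBV19, TRBV29 and all other V segments; TRBV29 is shifted to shorter loops. Right, share of clonotypes by the number of bases lost from the germline V end, in frame and out of frame.

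The sixth comparison was of counts per clonotype, which for RNA libraries reflects clone size, transcripts per cell and amplification together. These could not be told apart. Clonotypes of TRBV19 had 4.2998, 3.06, 4.40 and 4.26 counts on average and those of TRBV29 had 10.9, 6.81, 9.22 and 6.17, against library means of 18.4, 11.6, 20.4 and 17.5. Both segments lay below the library mean in 4 of 4 libraries, and TRBV19 below TRBV29.

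The share of counts over the share of clonotypes was 0.234, 0.263, 0.216 and 0.243 for TRBV19 and 0.593, 0.586, 0.453 and 0.352 for TRBV29. limma on its log2 gave -2.07 ± 0.17 (SE) for TRBV19 (adjusted p = 3.40e-07) and -1.04 ± 0.19 (SE) for TRBV29 (adjusted p = 0.000375). Of 23 segments 73.9% were called, 60.9% below the library mean, and the median over segments was -1.04, so that TRBV29 lay at the median of all segments. With the median count in place of the mean, the values were -1.18 and -0.43 and both passed the test.

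Out-of-frame clonotypes also had fewer counts than the out-of-frame mean of their library. TRBV19 had 2.64, 1.78, 3.90 and 2.48 and TRBV29 had 4.39, 3.15, 4.22 and 3.53 counts per clonotype, against 8.41, 5.57, 8.26 and 8.28. The log2 ratios were -1.53 ± 0.14 (SE; limma adjusted p = 0.000192) and -0.99 ± 0.11 (SE; limma adjusted p = 0.000263), where 72.7% of 22 segments were called, 59.1% lower.

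TRBV19 clonotypes with 1 count made up 28.2%, 38.3%, 37.4% and 44.3%, against 21.2%, 16.6%, 20.1% and 32.3% of clonotypes of the remaining V segments. TRBV29 had 19.02%, 18.03%, 21.7% and 38.4%. The lowest base quality in the CDR3 was below 37 in 4.28%, 8.68%, 8.83% and 9.24% of TRBV19 clonotypes, against 1.80% to 3.15% of the remaining ones and 1.77% to 3.30% of TRBV29 clonotypes. The part of base quality in the TRBV19 result was not tested.

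Between genotypes the log2 difference was -0.11 ± 0.38 (SE) for TRBV19 and -0.56 ± 0.38 (SE) for TRBV29 (limma adjusted p = 0.993 and 0.583). limma called 0 of 23 segments (0%), and 2 had an unadjusted p below 0.05. Without clonotypes above 0.1% of in-frame counts, the differences turned to 0.56 and 0.01.

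The seventh comparison was of clone sizes within each segment. In Vsig4-deficient libraries the 10 largest clonotypes of each segment held a larger part of its counts than in wild-type libraries. For TRBV19 they held 15.97%, 15.95%, 32.5% and 29.1% and for TRBV29 20.7%, 10.9%, 31.8% and 29.2%. The genotypes did not overlap for either segment, as for 80% of the 20 V segments with at least 100 clonotypes in every library, all of these with higher values in Vsig4-deficient libraries. The means were 15.96% ± 0.00825 against 30.8% ± 2.40 for TRBV19, and 15.8% ± 6.95 against 30.5% ± 1.85 for TRBV29 (wild-type against Vsig4-deficient, SD, n = 2 each). By the exact permutation test (two-sided) both had p = 0.333, the smallest possible.

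Clonality, which is 0 for clonotypes of equal size and 1 for a single clonotype, was computed after drawing each segment to the same counts (8715 for TRBV19 and 25031 for TRBV29). It was 0.0931, 0.102, 0.193 and 0.182 for TRBV19 and 0.140, 0.0799, 0.215 and 0.200 for TRBV29. Both Vsig4-deficient libraries were above both wild-type libraries (exact permutation p = 0.333 for both), as for 85% of the same 20 segments. The shift was thus that of most segments of these libraries.

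No clonotype of either segment ranked among the 10 largest of a library. The largest of TRBV19 ranked 89, 19, 83 and 117 in the libraries and the largest of TRBV29 ranked 11, 11, 31 and 64. In TRBV19 the clonotypes printed above had 313, 968, 797 and 590 counts, or 3.31%, 10.1%, 9.15% and 6.54% of the segment's counts in their library. The largest of them, that of wild-type 2, also had 26, 1 and 3 counts in wild-type 1 and Vsig4-deficient 1 and 2. In TRBV29 the largest had 2243, 1640, 2831 and 1146 counts, or 6.27%, 4.49%, 9.68% and 4.58%. The most abundant, that of Vsig4-deficient 1, kept the untrimmed germline V end and had 1 and 35 counts in wild-type 1 and Vsig4-deficient 2.

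The clonotypes ranked 2 and 3 used a range of J segments. With TRBV19 these were TRBJ2-2 and TRBJ2-1 in wild-type 1, TRBJ1-4 and TRBJ2-4 in wild-type 2, TRBJ2-4 and TRBJ1-2 in Vsig4-deficient 1, and TRBJ1-2 and TRBJ2-2 in Vsig4-deficient 2, with counts from 122 to 585. With TRBV29 they were TRBJ2-7 and TRBJ2-3 in wild-type 1, TRBJ2-7 and TRBJ2-2 in wild-type 2, TRBJ2-3 with both ranks in Vsig4-deficient 1, and TRBJ1-5 and TRBJ2-7 in Vsig4-deficient 2, with counts from 508 to 2192.

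The last description was of clonotypes shared between libraries, with a clonotype taken as CDR3 amino acids with V and J. Fewer were shared with TRBV19 than with TRBV29. Of 8381 TRBV19 clonotypes 7.72% were in at least 2 libraries and 22 were in all 4, a share of 0.262% (95% Wilson interval 0.173 to 0.397). Of 12818 TRBV29 clonotypes 12.9% were in at least 2 libraries and 94 were in all 4, a share of 0.733% (0.600 to 0.897). For all other V segments these shares were 15.8% and 0.877%. Counts per clonotype, which differed between the segments in the same order, are given above, and their part in the sharing was not tested.

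Between the libraries of a genotype, 183 TRBV19 clonotypes were shared in wild-type (8.61% and 6.03% of the libraries' clonotypes) and 177 in Vsig4-deficient libraries (9.15% and 8.58%). For TRBV29 these were 545 (17.5% and 10.95%) and 512 (17.1% and 13.3%). The Morisita-Horn index, which weights overlap by abundance and is 1 for identical sets, was 0.0468 and 0.0292 within genotypes for TRBV19 and 0.0393 and 0.0302 for TRBV29. Between genotypes it ran from 0.00318 to 0.0113 and from 0.00342 to 0.0117, below the values within genotypes. All other V segments together had the same order, at 0.0396 and 0.0119 within genotypes and 0.000668 to 0.00356 between them. The largest TRBV29 clonotypes of the libraries had 44, 17, 35 and 8 counts in the other library of their genotype. In each library of the other genotype they had 0 to 7 counts. Those of TRBV19 had 0, 26, 21 and 0 counts, against 0 to 3. The part of such single large clonotypes in the index was not tested.

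Of the clonotypes found in all 4 libraries, the 5 of each segment whose lowest share over the libraries was highest are printed, as their most abundant nucleotide sequence, to show the bases between their V and J ends (capitals).
TRBV19 with TRBJ2-4: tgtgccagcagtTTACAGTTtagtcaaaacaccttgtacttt
TRBV19 with TRBJ2-4: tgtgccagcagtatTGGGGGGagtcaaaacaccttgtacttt
TRBV19 with TRBJ2-3: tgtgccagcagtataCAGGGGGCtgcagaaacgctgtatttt
TRBV19 with TRBJ1-3: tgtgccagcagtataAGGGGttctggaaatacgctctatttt
TRBV19 with TRBJ2-1: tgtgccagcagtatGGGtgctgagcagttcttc
TRBV29 with TRBJ2-5: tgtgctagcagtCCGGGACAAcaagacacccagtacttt
TRBV29 with TRBJ2-3: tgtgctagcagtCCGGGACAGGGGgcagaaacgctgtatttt
TRBV29 with TRBJ1-2: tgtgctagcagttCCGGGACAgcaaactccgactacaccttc
TRBV29 with TRBJ2-5: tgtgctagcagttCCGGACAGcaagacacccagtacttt
TRBV29 with TRBJ2-1: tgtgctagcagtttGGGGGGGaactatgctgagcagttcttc
The first TRBV19 clonotype had 15, 122, 15 and 54 counts, from 2 nucleotide sequences, and the first of TRBV29 had 26, 29, 51 and 44 counts, from 7 nucleotide sequences. The first was also the clonotype ranked 3 in wild-type 2. The others had 2 to 26 counts per library with TRBV19 and 6 to 46 with TRBV29.
The printed sequences have 3 to 8 bases between the V and J ends with TRBV19 and 7 to 12 with TRBV29. Over all nucleotide clonotypes of the TRBV19 receptors shared by 4 libraries, the mean was 5.67, 5.42, 5.81 and 6.04 bases, against 10.1, 10.1, 10.3 and 10.2 in those of 1 library. For TRBV29 it was 7.61, 7.71, 7.61 and 7.77 against 9.39, 9.65, 9.64 and 9.75. Shared receptors thus had fewer bases between V and J in each library for both segments. A D segment was not assigned in 44.4% to 55.6% of the shared TRBV19 sequences, against 19.3% to 22.1% of those in 1 library, and in 28.0% to 29.6% against 24.3% to 25.2% with TRBV29. Shared receptors held 2.37%, 12.4%, 1.06% and 1.71% of TRBV19 counts, and in wild-type 2 the share was 2.27% without its largest clonotype of 968 counts. They held 10.5%, 7.43%, 4.80% and 5.28% of TRBV29 counts, and in wild-type 1 the share was 4.21% without its largest clonotype of 2243 counts.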

How the data were processed

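TRB repertoires of 4 libraries were read from 1 table per library, with genotypes and replicate numbers from the sample labels. The authors deposited, per the file headers, a whole-number clone count for each CDR3 sequence with no normalization. Not given in the sources used here are the program behind the clonotypes, its filters and whether it counted reads or molecules. The submitters' processing notes name only the build mm10. A fraction column, also deposited, matched each clone count divided by its table's sum, as checked. From the deposited score of base quality its minimum within CDR3 was described, with no filter on it.

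Members were rows whose first V hit was TRBV19 or TRBV29; no member had tied V hits. The members, lists and tests were chosen with earlier results of these data known. Named items are the 5 most used and all called J segments, the 3 largest clonotypes per library, 5 clonotypes shared by all libraries and the 3 closest segments; TRBV26, TRBV31 and the neighbours in rank were named after their values were seen.

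edgeR 4.0.16 quasi-likelihood tests (library totals as offsets, segments with at least 10 over the libraries, Benjamini-Hochberg adjustment, threshold 0.05) were fitted on all segments in R 4.3.3, and limma 3.58.1 on mean lengths and on log2 ratios. Where the edgeR fit varied less than counting allows, the SE was that of counting. Single values were compared by exact permutation or sign-flip tests over libraries (smallest p 0.333 and 0.125), in Python 3.11.15 and SciPy 1.17.1. The edgeR and limma fits were tested on simulated data with a preset spread, and the exact tests and the descriptions were not. No genome was used: V trimming came from the deposited alignment points in place of the planned match to germline sequence, positions from RefSeq's GRCm38.p6 table. The restriction of D shares to TRBJ2, D ties, the out-of-frame, fixed-length and by-count D shares and the tryptophan share, and the shares of segments without overlap for clone size and TRBD1, were added after the data were seen. Alternatives were TMM, DESeq2 1.42.0, no filter, 1-count clonotypes left out, joining 1-mismatch neighbours at 20-fold count excess, tied V hits left out, dropping clonotypes that hold under 1% of their highest share in another library, weighting, largest clonotypes left out, other definitions of clonotype and clone size, the replicate block and each library left out. Clonality was a mean of 10 draws. Intervals are at 95%.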

Additional observations from a re-analysis of the deposited data

Results flagged for a closer look

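The share of TRBV19 clonotypes without an assigned D, minus that of other V segments, was small in the wild-type and negative in the Vsig4-deficient libraries. It was 0.116 and 0.281 percentage points in the wild-type and -2.19 and -1.70 in the Vsig4-deficient libraries, a difference in means of -2.14 points. The difference itself was not tested, and single V segments without overlap between genotypes in this share were not counted. With 8 such D comparisons and 24 J pairs looked at, among others, some pattern of this kind can be met by chance in 4 libraries.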

How the results depend on the processing

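With 2 libraries per genotype, single libraries set most genotype results. Leaving out each library in turn, usage by clonotypes ran from -0.55 to -0.0704 for TRBV19 and from -0.29 to -0.0731 for TRBV29, usage by counts of TRBV29 from -1.03 to -0.45 and in-frame over out-of-frame usage of TRBV19 from -0.0178 to 0.17 (log2). Called segments ran from 0 to 13 by clonotypes and from 0 to 5 by counts, from 0 to 2 for CDR3 length and from 0 to 1 for counts per clonotype between genotypes, and called J pairs from 0 to 13. J segments called for TRBV19 ran from 2 to 4 higher, and for TRBV29 from 0 to 5 higher and from 0 to 4 lower. The TRBD1 share of TRBV29 between genotypes ran from -0.501 to 1.95 percentage points and its V bases kept from -0.151 to 0.00978. With clonotypes above 0.1% of counts left out, usage by counts of TRBV19 turned to 0.26, and counts per clonotype between genotypes turned to 0.56 for TRBV19 and 0.0132 for TRBV29; for TRBV19 they were 0.45 with medians and 0.20 without the largest clonotypes. With 1-count clonotypes left out, in-frame over out-of-frame usage of TRBV19 was 0.22, 2 J segments were higher for TRBV29, its TRBD1 difference between genotypes was -0.225 points, and 0.147% of TRBV19 and 0.509% of TRBV29 clonotypes were in all 4 libraries (0.0770% and 0.0884% by nucleotides). DESeq2 called 1 segment by counts, and 3 were called without the largest clonotypes.

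Weighted by counts, the CDR3 length of TRBV19 against other segments was 0.016 and between genotypes -0.052, that of TRBV29 against other segments -0.336, 7 segments were called for length, and the V bases kept by TRBV29 differed by 0.022 between genotypes. By this weighting 0 J segments were called for TRBV19 and 0 for TRBV29, higher or lower, and ratios turned for TRBV19 with TRBJ1-2 (0.16), TRBJ2-3 (0.28) and TRBJ2-4 (0.0353) and for TRBV29 with TRBJ1-4 (-0.0818), TRBJ1-6 (-0.0456), TRBJ2-3 (0.63), TRBJ2-5 (-0.54) and TRBJ2-7 (0.16). The causes were not tested. Same-numbered libraries did not deviate together (r = 0.147 by clonotypes and -0.200 by counts over 23 segments). With the replicate block, 0 segments were called by clonotypes (TRBV19 -0.31, TRBV29 -0.18) or by counts (TRBV19 -0.43, TRBV29 -0.74), and it changed no other call. A crossed block, added after the data were seen, also called 0 by counts. Of 543 alternatives over 64 results, 450 kept direction and side of the threshold or size. Results with an exact test could not change sides, and leaving out tied V hits removed no member row. Part of this count was thus fixed beforehand. Kept results could still shrink, as TRBV19 usage by counts did from -0.42 to -0.11 without the largest clonotypes.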
